A study of Mus musculus with 30 samples.

Results

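The liver is the main target of growth hormone and the main source of circulating IGF-1, and 10 genes of this axis were followed in livers with and without hepatocyte CEBPA. They were chosen by symbol as 1 ligand (*Igf1*), the subunit that stabilises it in blood (*Igfals*), the growth hormone receptor (*Ghr*), the transcription factor it activates (*Stat5b*), 2 feedback inhibitors of the receptor (*Socs2* and *Cish*) and 4 IGF-binding proteins (*Igfbp1*, *Igfbp2*, *Igfbp3* and *Igfbp4*). All 10 were found among the 55450 genes of the count table, each on 1 row, and all 10 had enough counts to be tested in every experiment.

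Liver poly(A) RNA of male mice on a C57BL/6N background was sequenced in 3 experiments, with 5 *Cebpa* fl/fl mice (Cre-negative) and 5 knockout mice (Cre-positive) in each and 1 library per mouse, so 30 libraries in 6 groups. All mice carried floxed *Cebpa* alleles and ate HFCFD, a diet rich in fat, cholesterol and fructose that brings on steatohepatitis. In HFCFD2W the knockouts were *Cebpa* ΔHep, in which Cre is driven constitutively by the albumin promoter, and the diet lasted 2 weeks. Both other experiments, HFCFD8W+T10D and HFCFD12W+T10W, used *Cebpa* ΔHep,ERT2 knockouts, in which the albumin-driven Cre acts only after tamoxifen. The labels give 8 weeks of diet with 10 days of tamoxifen for the former and 12 weeks of diet with 10 weeks of tamoxifen for the latter, and in both experiments the same treatment for the fl/fl and the knockout mice. In the study's scheme the tamoxifen followed the 12 weeks of HFCFD12W+T10W while feeding went on, which makes 22 weeks of diet in all. Whether the 8 weeks of HFCFD8W+T10D include the 10 days is not given in the sources used here. The age of the mice is not given in the labels. The labels call the libraries of a group biological replicates. HFCFD2W is set apart by its Cre line, its short diet and the absence of tamoxifen at once, and the tamoxifen experiments share the Cre line but differ in diet time and in tamoxifen time. Within each comparison between experiments these cannot be told apart, and the labels name no batch.

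Growth hormone from the pituitary binds GHR on hepatocytes, JAK2 phosphorylates STAT5B, and STAT5B then drives transcription of *Igf1*, *Igfals* and the feedback inhibitors *Socs2* and *Cish*. IGF-1 travels in blood mostly in a complex with an IGF-binding protein (chiefly IGFBP3) and the acid-labile subunit encoded by *Igfals*, while IGFBP1 and IGFBP2 form smaller complexes whose amounts follow nutrition, IGFBP1 being held down by insulin. In male rodents growth hormone arrives in pulses, so that STAT5B activity and its quick targets change from hour to hour, and the same pulses set the sex-biased expression of many liver genes.

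*Cebpa* itself, the deleted gene, was lower in every knockout library. It ran from 149 to 193 CPM in *Cebpa* fl/fl and from 3.43 to 5.68 CPM in knockout livers of HFCFD2W, from 121 to 156 against 11.1 to 25.1 CPM in HFCFD8W+T10D, and from 82.5 to 135 against 18.7 to 23.8 CPM in HFCFD12W+T10W. CPM are counts relative to the library's total, after the TMM correction for composition, which sets most genes level between libraries. Library totals ran from 7996123 to 10257347 counts. The scaling matters in the tamoxifen experiments. When libraries were scaled by their totals alone, the median log2 fold change of all genes was 0.03 for HFCFD2W, 0.20 for HFCFD8W+T10D and 0.38 for HFCFD12W+T10W, against 0.0073, 0.011 and 0.013 with TMM. Differences below are therefore relative to the median gene, and for the 10 genes the value by library totals is given wherever it ends a call. The lists of other genes are given with both counts where these differ.

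Of the 10 genes, *Igfals* and *Ghr* passed the main test in the same direction in more than 1 experiment, so the sequence before their transcription starts is shown. The calls of *Igfals* in HFCFD2W and of *Ghr* in HFCFD8W+T10D are less firm, as given below. In the RefSeq table (GRCm38.p6) *Igfals* has 3 start sites and *Ghr* has 2. The windows below are the 250 bases before the start, written 5′ to 3′ on the strand of the gene, and capitals mark the STAT motif TTCNNNGAA, searched on both strands (it reads the same on each).
*Igfals*, chr17:24877594-24877843, plus strand: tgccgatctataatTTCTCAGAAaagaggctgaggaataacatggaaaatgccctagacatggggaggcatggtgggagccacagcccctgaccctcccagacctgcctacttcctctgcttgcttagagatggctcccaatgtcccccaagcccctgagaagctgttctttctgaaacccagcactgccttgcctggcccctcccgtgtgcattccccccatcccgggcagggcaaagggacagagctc
*Igfals*, chr17:24877981-24878230, plus strand: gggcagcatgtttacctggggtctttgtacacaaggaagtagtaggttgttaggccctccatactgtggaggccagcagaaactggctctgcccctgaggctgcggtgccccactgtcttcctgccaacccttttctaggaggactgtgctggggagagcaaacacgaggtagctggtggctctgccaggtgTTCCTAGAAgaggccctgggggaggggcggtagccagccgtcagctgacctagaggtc
*Ghr*, chr15:3581843-3582092, minus strand: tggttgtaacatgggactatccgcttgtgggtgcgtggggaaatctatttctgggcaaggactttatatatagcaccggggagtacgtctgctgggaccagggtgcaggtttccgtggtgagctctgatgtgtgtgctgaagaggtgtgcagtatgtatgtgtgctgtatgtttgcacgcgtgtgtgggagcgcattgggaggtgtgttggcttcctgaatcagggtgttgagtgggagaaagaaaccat
The capital letters are TTCTCAGAA, at -236 to -228 from its start, and TTCCTAGAA, at -58 to -50. The former window overlaps the first exon of a noncoding *Igfals* transcript and the latter the beginning of another, and the printed *Ghr* window overlaps no annotated exon. The motif occurs in 7.02% of 32851 such windows over all genes. It was in none of the other windows of the axis genes, and the C/EBP motif TTGCNNAA, found in 9.56% of all windows, was in none of theirs on either strand. A match or its absence describes these letters only. The table held no window for *Socs2*.

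*Igfals* lies at chr17:24865997-24882010 on the plus strand and *Ghr* at chr15:3317760-3583492 on the minus strand (GRCm38). *Igf1* lies at chr10:87858265-87937042, and 2 of the binding protein genes are neighbours, *Igfbp1* at chr11:7197782-7202546 and *Igfbp3* at chr11:7206086-7213923 on the opposite strand, with 3539 bases between their ends. An antisense gene, *Igf1os*, overlaps *Igf1* and held a mean of 3.17 counts per library against 4713.6 for *Igf1*. The library kit keeps strand, but whether the counting used it is not given in the sources used here.

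Per transcript length, the axis was led by a binding protein and its ligand. In *Cebpa* fl/fl livers of HFCFD2W the authors' TPM (a transcript share that corrects for length) averaged 750 for *Igfbp4*, 365 for *Igf1* and 286 for *Ghr*, then 129 for *Igfbp2* and 81.4 for *Igfals*. *Igfbp1* averaged 15.6 TPM there, *Igfbp3* 7.60, *Stat5b* 7.47, *Cish* 3.39 and *Socs2* 1.69, so the transcripts of the receptor outnumbered those of its signal transducer. In the knockout livers of HFCFD12W+T10W the same scale read 855 for *Igfbp4* and 415 for *Igf1*, and *Igfbp1* came next at 303 TPM, above *Ghr* at 218 TPM. TPM carries no TMM scaling and serves here only to compare genes within a group.

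**Figure D1:**
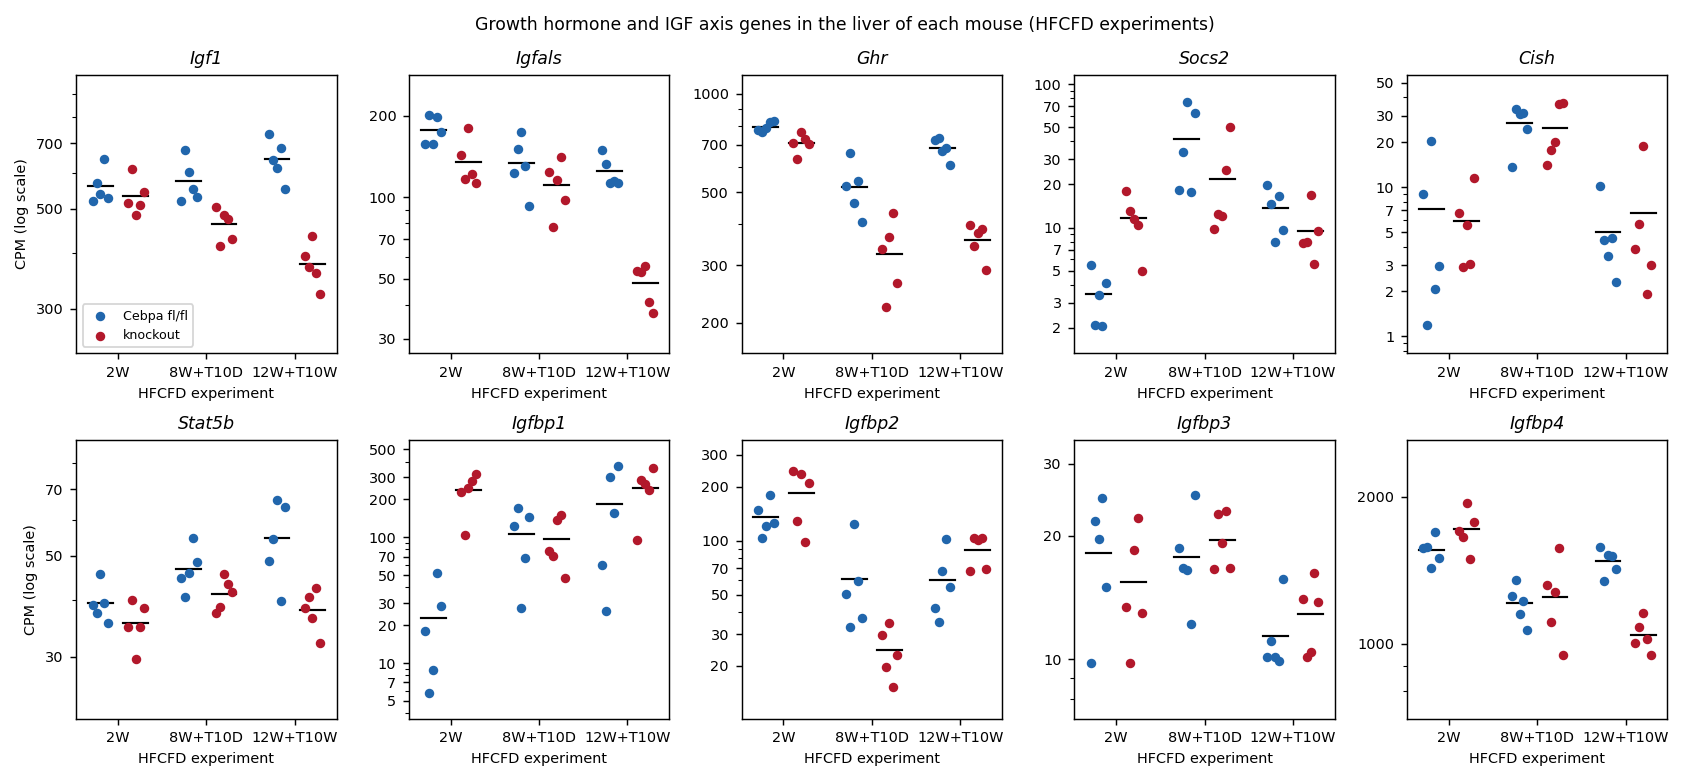
Levels of the 10 genes in CPM (TMM-scaled, log axis) in each mouse of the 3 experiments, with 1 point per mouse, blue for *Cebpa* fl/fl and red for knockout livers, and a bar at the mean of 5 mice. *Igf1*, *Igfals*, *Ghr* and *Igfbp4* separate the genotypes completely in HFCFD12W+T10W, *Igf1* in HFCFD8W+T10D, and *Igfbp1* and, narrowly, *Ghr* in HFCFD2W. Over all genes tested, knockouts lay all above or all below for 2441 and 2431 of 12463 genes in HFCFD12W+T10W. These counts were 721 and 660 of 11990 in HFCFD8W+T10D and 701 and 678 of 11068 in HFCFD2W. *Socs2* and *Cish* spread widely within groups.

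In HFCFD2W, after constitutive loss of CEBPA, the binding protein gene *Igfbp1* and the inhibitor gene *Socs2* rose, *Igfals* fell slightly, and *Igf1* and *Ghr* did not pass the test. Thus 2 of 10 genes were higher and 1 lower (edgeR's quasi-likelihood test, Benjamini-Hochberg adjusted p under 0.05 over 11068 genes), where 8.6% of all genes tested were higher and 8.09% lower. Nothing more is read from shares of only 10 genes. The median log2 fold change of the 10 genes was -0.11.

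*Igfbp1*, whose protein binds IGF-1 and is raised in fasting, stood at 18, 5.79, 8.86, 52.2 and 28.4 CPM in the 5 *Cebpa* fl/fl mice and at 230, 104, 246, 280 and 318 CPM in the 5 *Cebpa* ΔHep mice. Every knockout liver was above every fl/fl liver, as for 701 of the 11068 genes tested. The log2 fold change was 3.39 ± 0.48 (SE, adjusted p = 0.000488 by edgeR). *Socs2*, which marks GHR signalling for degradation, read 5.49, 2.08, 3.38, 2.07 and 4.12 CPM in fl/fl and 18.1, 13.1, 11.4, 10.5 and 4.97 CPM in knockout livers. Its groups overlapped through 1 knockout mouse, and the log2 fold change was 1.77 ± 0.33 (adjusted p = 0.00312 by edgeR). Both calls held under all 16 alternatives.

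*Igfals*, the acid-labile subunit, read 157, 201, 158, 198 and 174 CPM in fl/fl and 143, 117, 180, 122 and 113 CPM in knockout livers, with 4 of 5 knockout mice below all fl/fl mice and the remaining one among them. Its log2 fold change was -0.39 ± 0.12 (adjusted p = 0.0454 by edgeR). The call is marginal, since it was lost under 10 of 16 alternatives, with adjusted p from 0.00579 to 0.108. They include library totals (adjusted p = 0.0540) and leaving out fl/fl mouse 2, 4 or 5 or knockout mouse 2, 3, 5 or 6.

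The remaining 7 genes did not pass in HFCFD2W. *Igf1* differed by -0.07 ± 0.09 on the log2 scale (adjusted p = 0.608), with fl/fl livers at 522 to 647 CPM and knockout livers at 484 to 612 CPM. *Ghr* differed by -0.17 ± 0.07 (adjusted p = 0.122), the fl/fl mice lying at 763 to 826 CPM and the knockouts at 634 to 763 CPM. Before rounding all its knockouts lay below all fl/fl mice, as for 678 of the 11068 genes tested. *Ghr* passed with DESeq2 (adjusted p = 0.0288). *Stat5b* (-0.14), *Cish* (-0.32), *Igfbp2* (0.44), *Igfbp3* (-0.25) and *Igfbp4* (0.14) had adjusted p from 0.214 to 0.773 by edgeR. The size of the *Cish* estimate has little weight, since 1 fl/fl mouse held 20.4 CPM and another 1.19 CPM.

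In HFCFD8W+T10D, 10 days after induced loss began, the receptor gene *Ghr* and the binding protein gene *Igfbp2* fell, and none of the 10 genes rose. So 0 were higher and 2 lower by edgeR, where 10.3% of 11990 genes tested were higher and 6.85% lower (16.9% and 3.19% by library totals). The count higher was also 0 at an unadjusted p under 0.05 and with DESeq2. The median log2 fold change of the 10 genes was -0.21.

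*Ghr* read 524, 660, 466, 543 and 405 CPM in *Cebpa* fl/fl and 336, 224, 365, 434 and 264 CPM in *Cebpa* ΔHep,ERT2 livers. Here 4 knockout mice lay below all fl/fl mice and the highest knockout above the lowest fl/fl mouse. The log2 fold change was -0.66 ± 0.18 (adjusted p = 0.0249 by edgeR) and -0.50 by library totals (adjusted p = 0.0117). The call was lost, with adjusted p up to 0.0602, when knockout mouse 2 or 5 or fl/fl mouse 2 or 4 was left out, the log2 fold change without them running from -0.66 to -0.56.

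*Igfbp2*, whose protein is raised in protein restriction and lowered by growth hormone, read 50.5, 33.0, 124, 59.2 and 37.1 CPM in fl/fl and 29.9, 19.7, 34.5, 15.2 and 22.9 CPM in knockout livers. All knockout mice but one were below the lowest fl/fl mouse. The log2 fold change was -1.30 ± 0.34 (adjusted p = 0.0192 by edgeR), and the call held under all 16 alternatives.

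*Igf1* did not pass in HFCFD8W+T10D although all knockouts lay below all fl/fl mice, as for 660 of the 11990 genes tested. It read 521, 677, 604, 554 and 531 CPM in fl/fl and 506, 414, 486, 474 and 429 CPM in knockout livers, a log2 fold change of -0.31 ± 0.12 (adjusted p = 0.0866 by edgeR). It passed with DESeq2 (adjusted p = 0.017) and in a joint fit of the 6 groups (adjusted p = 0.0138). By library totals it was -0.13 (adjusted p = 0.417).

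*Socs2* varied more within a genotype than between them at this time. The fl/fl livers held 18.2, 33.5, 75.1, 17.8 and 62.5 CPM and the knockout livers 9.84, 12.5, 12, 25.3 and 50.5 CPM. The 3 lowest mice were knockouts and the 2 highest were fl/fl, and the log2 fold change of -0.90 ± 0.50 did not pass (adjusted p = 0.242 by edgeR). Without knockout mouse 5, the highest of its group, it was -1.49 and passed (adjusted p = 0.0366). *Cish* (-0.09), *Stat5b* (-0.17), *Igfals* (-0.26), *Igfbp1* (-0.14), *Igfbp3* (0.15) and *Igfbp4* (0.05) had adjusted p from 0.273 to 0.869 by edgeR, and *Cish*, *Stat5b* and *Igfbp1* turned positive by library totals.

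In HFCFD12W+T10W, after 10 weeks of loss, the ligand, its stabiliser and the receptor all fell. The transducer *Stat5b* and the most abundant binding protein *Igfbp4* also passed in the same direction, so that 5 of 10 genes were lower and 0 higher by edgeR (0 higher with DESeq2, and 1 gene, *Igfbp2*, higher at an unadjusted p under 0.05). Over all 12463 genes tested, 27.4% were higher and 23.8% lower, a split that library totals moved to 56.6% and 7.72%. All knockouts lay below all fl/fl mice for 2431 of these genes and above them for 2441, so such separation alone says little here. The median log2 fold change of the 10 genes was -0.46.

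*Igfals* showed the largest fold change of the 5. It read 150, 133, 113, 115 and 113 CPM in *Cebpa* fl/fl and 53.6, 52.9, 55.5, 41.0 and 37.5 CPM in knockout livers, so every knockout mouse was far below every fl/fl mouse. The log2 fold change was -1.33 ± 0.12 (adjusted p = 3.30e-06 by edgeR) and -0.96 by library totals (adjusted p = 2.43e-05).

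*Ghr* read 725, 735, 670, 685 and 606 CPM in fl/fl and 399, 342, 376, 386 and 289 CPM in knockout livers. The groups stood apart, and the log2 fold change was -0.89 ± 0.10 (adjusted p = 1.15e-05 by edgeR) or -0.52 by library totals (adjusted p = 0.00022). *Igf1* read 734, 642, 617, 684 and 555 CPM in fl/fl and 394, 371, 435, 360 and 324 CPM in knockout livers. Its groups also stood apart, with a log2 fold change of -0.73 ± 0.10 (adjusted p = 5.69e-05 by edgeR) that was -0.36 by library totals (adjusted p = 0.00334). For *Igfals*, *Ghr* and *Igf1* the call held under all 16 alternatives.

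The calls for *Stat5b* and *Igfbp4* rested on the scaling. *Stat5b* read 48.7, 54.3, 66.4, 39.7 and 64.0 CPM in fl/fl and 38.4, 40.6, 36.4, 42.5 and 32.1 CPM in knockout livers, with 1 fl/fl mouse inside the knockout range. Its log2 fold change of -0.48 ± 0.13 (adjusted p = 0.00818 by edgeR) shrank to -0.11 by library totals (adjusted p = 0.464). *Igfbp4* read 1579, 1344, 1518, 1514 and 1426 CPM in fl/fl and 1005, 1084, 1156, 1022 and 948 CPM in knockout livers, without overlap. Its log2 fold change of -0.46 ± 0.08 (adjusted p = 0.000548 by edgeR) shrank to -0.09 by library totals (adjusted p = 0.321).

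Among the other binding proteins, *Igfbp2* read 42.3, 35.3, 67.5, 102 and 55.0 CPM in fl/fl and 68.0, 103, 101, 103 and 69.1 CPM in knockout livers. The log2 fold change was 0.60 ± 0.25 and did not pass (adjusted p = 0.0621 by edgeR), although it passed by library totals (0.98, adjusted p = 0.00300), with no low-count filter, with upper quartile scaling and without fl/fl mouse 4. *Igfbp1* was widely spread in both genotypes, from 26.1 to 372 CPM in fl/fl and from 95.6 to 358 CPM in knockout livers, and its difference of 0.47 ± 0.57 did not pass (adjusted p = 0.515). *Igfbp3*, which in rodent liver is made mainly outside hepatocytes, differed by 0.22 ± 0.16 (adjusted p = 0.285) and passed by library totals (0.59, adjusted p = 0.00919).

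The feedback inhibitors did not pass in HFCFD12W+T10W. *Socs2* lay at 7.93 to 19.7 CPM in fl/fl and 5.56 to 17 CPM in knockout livers, a difference of -0.47 ± 0.30 on the log2 scale (adjusted p = 0.210 by edgeR), which passed without knockout mouse 3 (-0.79, adjusted p = 0.0219). *Cish* differed by 0.48 ± 0.58 (adjusted p = 0.516), and the same knockout mouse 3 held 19 CPM of it while the other 4 held 1.92 to 5.63 CPM. In that mouse both inhibitors of the receptor were at the top of their group.

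**Figure D2:**
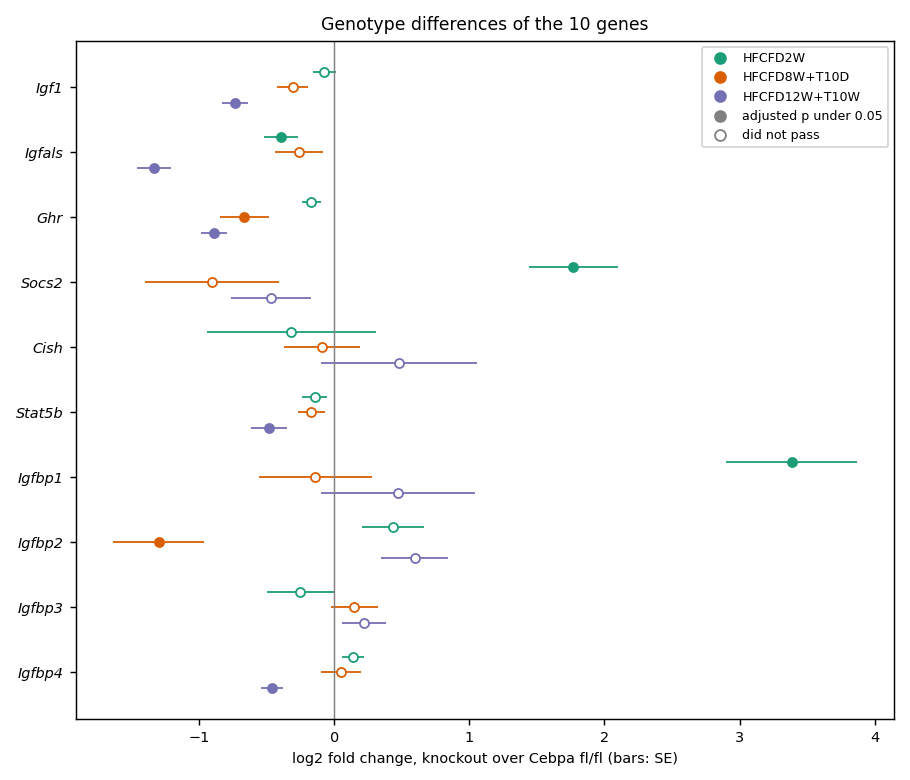
Log2 fold changes of the 10 genes, knockout over *Cebpa* fl/fl, in the 3 experiments (points, with bars of 1 SE, 5 mice per genotype; filled where the adjusted p is under 0.05 in edgeR). *Igfbp1* (3.39) and *Socs2* (1.77) lie far to the right in HFCFD2W, and *Igf1*, *Igfals* and *Ghr* lie furthest left in HFCFD12W+T10W.

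**Figure D3:**
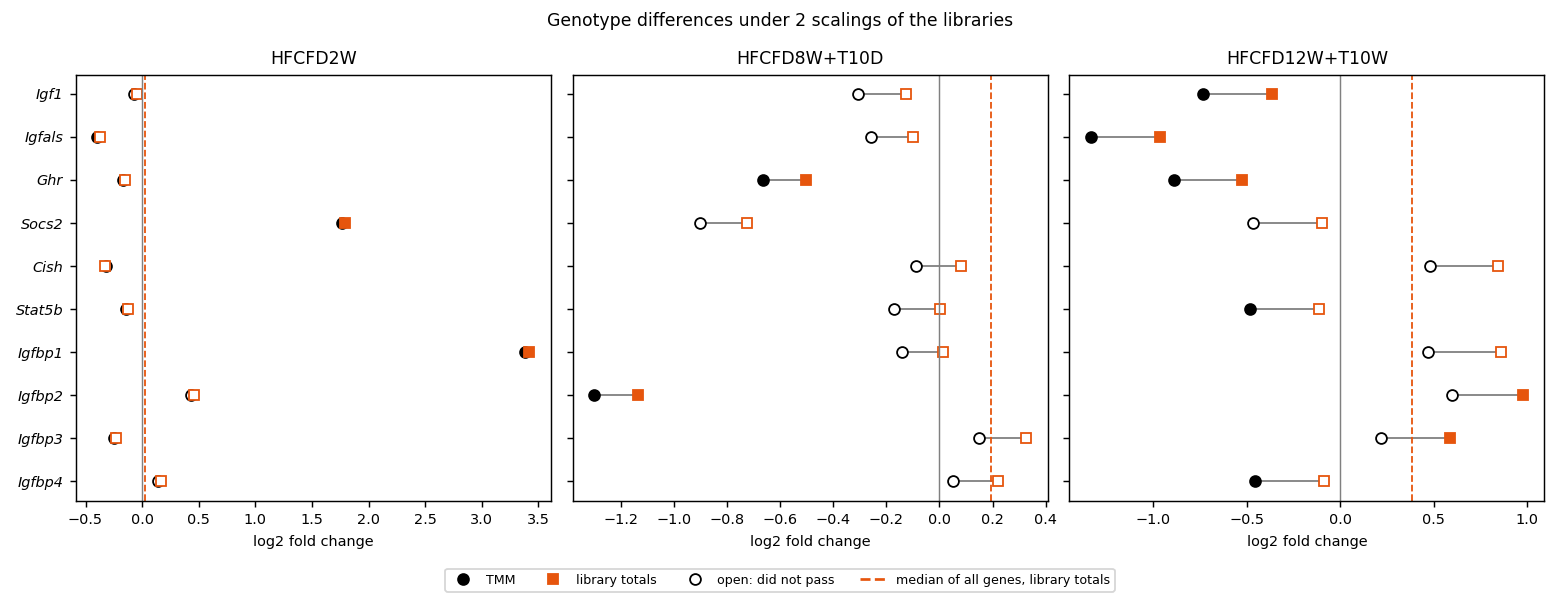
Log2 fold changes of the 10 genes with TMM scaling (black circles) and with library totals (orange squares), joined per gene, filled where the adjusted p is under 0.05, with a dashed line at the median of all genes by library totals (0.03, 0.20 and 0.38). In HFCFD12W+T10W all points move right, *Stat5b* and *Igfbp4* lose their call, *Igfbp2* and *Igfbp3* gain one, and *Igf1*, *Igfals* and *Ghr* keep theirs.

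Whether the genotype effect itself differed between experiments was tested in 1 fit of all 30 libraries (12964 genes). Between HFCFD8W+T10D and HFCFD2W, 3 of 10 genes differed, where 11.2% of all genes did. They were *Igfbp1*, with a difference of log2 fold changes of -3.54 ± 0.81 (adjusted p = 0.00471 by edgeR), *Socs2* at -2.68 ± 0.67 (adjusted p = 0.00928) and *Igfbp2* at -1.75 ± 0.44 (adjusted p = 0.00957). All 3 were lower, relative to fl/fl, in the induced than in the constitutive knockout.

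Between HFCFD12W+T10W and HFCFD2W, 6 of 10 genes differed, where 30.7% of all genes did. The effect was more negative after long induced loss for *Igf1* (difference -0.70 ± 0.14, adjusted p = 0.000343 by edgeR), *Igfals* (-0.98 ± 0.23, adjusted p = 0.00155) and *Ghr* (-0.76 ± 0.19, adjusted p = 0.00268). The same held for *Socs2* (-2.28 ± 0.70, adjusted p = 0.0134) and *Igfbp4* (-0.64 ± 0.15, adjusted p = 0.00166), the last being lost by library totals (adjusted p = 0.0517). For *Igfbp1* the effect was less positive, at 0.47 against 3.39 (difference -2.95 ± 0.80, adjusted p = 0.00621). Its knockout means were 247 CPM in HFCFD12W+T10W and 236 CPM in HFCFD2W, while its fl/fl means were 183 and 22.6 CPM.

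Between HFCFD12W+T10W and HFCFD8W+T10D, which share the Cre line, 4 of 10 genes differed, where 10.5% of all genes did. *Igfals* was more strongly lowered after the longer loss (difference -1.10 ± 0.23, adjusted p = 0.00255 by edgeR). For *Igfbp2* the difference was positive (1.87 ± 0.44, adjusted p = 0.00806), its fold change having passed as lower in HFCFD8W+T10D and not having passed in HFCFD12W+T10W. Both of these differences held under all 24 alternatives. The differences for *Igf1* (-0.46 ± 0.14, adjusted p = 0.0309) and *Igfbp4* (-0.54 ± 0.15, adjusted p = 0.0193) were less firm. That of *Igf1* was lost under 16 of 24 alternatives and that of *Igfbp4* under 4, including library totals for both. Without fl/fl mouse 3 or without fl/fl mouse 5 of HFCFD8W+T10D, 2 of the 4 remained, *Igfals* and *Igfbp2*. For *Ghr* the difference between the tamoxifen experiments was -0.25 ± 0.19 and did not pass (adjusted p = 0.427).

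Across the 6 groups the means of the genes varied by different amounts, without a clear break between steady and variable ones. The ratio of the highest to the lowest group mean was 1.53 for *Stat5b*, 1.65 for *Igfbp4*, 1.71 for *Igf1*, 1.72 for *Igfbp3*, 2.45 for *Ghr* and 3.70 for *Igfals*, and it was 5.36 for *Cish*, 7.50 for *Igfbp2*, 10.9 for *Igfbp1* and 12.1 for *Socs2*. These level comparisons between experiments are descriptions without a test.

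In the order of group means, *Igf1* ran from 646 ± 67.5 CPM in HFCFD12W+T10W fl/fl (SD, n = 5) through the fl/fl livers of the other experiments (577 and 562), the HFCFD2W knockouts (533) and the HFCFD8W+T10D knockouts (462) to the HFCFD12W+T10W knockouts at 377 ± 41.2 CPM, each group overlapping its neighbour. *Igfals* ran from 178 ± 21.1 CPM in HFCFD2W fl/fl to 111 ± 24.2 CPM in HFCFD8W+T10D knockouts with overlap at each step, and then dropped to 48.1 ± 8.23 CPM in HFCFD12W+T10W knockouts, which overlapped no other group. *Ghr* had its lowest groups in the 2 induced knockouts, at 358 ± 44.1 and 325 ± 82.9 CPM, and the former did not overlap the lowest fl/fl group (519 ± 95.2 CPM in HFCFD8W+T10D).

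The feedback inhibitors were highest in HFCFD8W+T10D in both genotypes. *Socs2* averaged 41.4 ± 26.2 CPM in fl/fl and 22 ± 17 CPM in knockout livers there, against 3.43 ± 1.45 to 13.7 ± 4.86 CPM in the other 4 groups. *Cish* averaged 26.8 ± 8.03 and 25 ± 10.7 CPM there, against 5.00 ± 3.05 to 7.14 ± 8.03 CPM elsewhere, although single mice elsewhere reached 20.4 CPM. The lowest *Socs2* group, HFCFD2W fl/fl, did not overlap the next in order, the HFCFD12W+T10W knockouts, but overlapped the HFCFD2W knockouts.

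*Igfbp1* was lowest in HFCFD2W fl/fl livers (22.6 ± 18.7 CPM) and averaged 96.2 to 247 CPM in the other 5 groups, each overlapping its neighbour in the order. *Igfbp2* was highest in HFCFD2W, at 183 ± 65.7 CPM in knockout and 135 ± 29.4 CPM in fl/fl livers, and lowest in HFCFD8W+T10D knockouts, whose 24.4 ± 7.76 CPM did not overlap the next group in order, HFCFD12W+T10W fl/fl, but overlapped the fl/fl livers of their own experiment. *Igfbp4* ranged from 1043 ± 79.9 to 1716 ± 165 CPM, *Stat5b* from 35.6 ± 3.95 to 54.6 ± 11 CPM and *Igfbp3* from 11.4 ± 2.44 to 19.6 ± 3.10 CPM, with overlap at every step.

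Mice of 1 group differed most in *Cish*, *Igfbp1* and *Socs2*. The median coefficient of variation over the 6 groups was 60.1% for *Cish*, 50.4% for *Igfbp1*, 44.1% for *Socs2* and 33.9% for *Igfbp2*, against a median of 12.2% over the 8963 genes with a mean of at least 5 CPM. It was 24% for *Igfbp3*, 18.8% for *Igfals*, 10.8% for *Stat5b*, 9.89% for *Ghr*, 9.82% for *Igf1* and 8.26% for *Igfbp4*. *Cish* had as few as 8 counts and *Socs2* as few as 14 counts in a library, so counting error adds to their spread, while *Igfbp1* never had fewer than 39.

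The genes whose deviations from the group means were most like those of *Igf1* over the 30 libraries were *Cyp7b1* (r = 0.747), an oxysterol hydroxylase with male-biased expression, *Adtrp* (r = 0.731) and *Poglut1* (r = 0.730). For *Socs2* they were *Slc25a30* (r = 0.833), a mitochondrial carrier, *Mb21d2* (r = 0.764) and *Gtpbp4* (r = 0.748). These are the highest of 8962 correlations of log2 CPM each and a description only.

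Around the 10 genes, the other genes of growth hormone signalling moved both ways. A list of 18 genes for the receptor, its kinase, the STATs and their inhibitors (4 of them among the 10 genes), of which 17 could be tested in each experiment, had 2 higher and 1 lower in HFCFD2W, 3 higher and 1 lower in HFCFD8W+T10D and 5 higher and 6 lower in HFCFD12W+T10W by edgeR, the last becoming 7 and 2 by library totals (in HFCFD8W+T10D 4 and 1). The shares over all genes stand above (8.6% higher and 8.09% lower, 10.3% and 6.85%, and 27.4% and 23.8%, or 56.6% and 7.72% by library totals in HFCFD12W+T10W), and no more is read from these counts. Its median log2 fold change was -0.07, -0.09 and -0.05, or -0.05, 0.11 and 0.32 by library totals.

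*Prlr*, the prolactin receptor, a relative of GHR that also signals through STAT5, had the most negative fold change of that list in HFCFD2W and HFCFD12W+T10W. It averaged 51.9 ± 18.5 CPM in fl/fl and 4.82 ± 1.89 CPM in knockout livers of HFCFD2W (log2 fold change -3.42 ± 0.27, adjusted p = 7.09e-06 by edgeR) and 284 ± 51.8 against 69.3 ± 10.7 CPM in HFCFD12W+T10W (-1.99 ± 0.14, adjusted p = 4.34e-07). The groups did not overlap in either experiment. *Grb10*, an adaptor that damps insulin and IGF-1 receptor signalling, rose from 2.79 ± 0.76 to 8.70 ± 2.75 CPM in HFCFD2W (1.63 ± 0.27, adjusted p = 0.00124) and from 3.09 ± 0.46 to 9.68 ± 2.73 CPM in HFCFD12W+T10W (1.69 ± 0.21, adjusted p = 2.60e-05). *Ptpn6*, a phosphatase of JAK2 that is abundant in blood cells, rose by 0.63 ± 0.16 in HFCFD8W+T10D (adjusted p = 0.0162) and 0.80 ± 0.12 in HFCFD12W+T10W (adjusted p = 0.00017). Of 10 macrophage markers given below, 6 were higher in each of these experiments, and 2 were lower in HFCFD12W+T10W. The part of blood cells in the rise of *Ptpn6* was not tested.

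A list of 23 IGF system genes (6 of them among the 10 genes) is described over the 13 that could be tested in all 3 experiments, since the others had too few counts in at least 1 of them. Of the 13, 2 were higher and 1 lower in HFCFD2W, 0 higher and 1 lower in HFCFD8W+T10D, and 2 higher and 5 lower in HFCFD12W+T10W by edgeR (1 and 0, 1 and 1, and 4 and 2 by library totals), beside the same shares over all genes. Their median log2 fold change was 0.14, -0.26 and 0.19 (0.16, -0.09 and 0.56 by library totals). In HFCFD8W+T10D 16 genes were tested, of which 0 were higher by edgeR, 1 by library totals, 2 at an unadjusted p under 0.05 and 1 with DESeq2. In HFCFD12W+T10W 19 were tested, of which 6 were higher and 5 lower (9 and 2 by library totals). The 6 include *Igf2*, *Stc2* and *Pappa*, which held 0.456, 0.202 and 0.111 CPM in fl/fl livers. These 3 passed the filter on low counts only in HFCFD12W+T10W, through the knockouts (*Stc2* and *Pappa* are named after their values were seen). There the fetal growth factor *Igf2* rose from 0.456 ± 0.191 to 8.95 ± 2.71 CPM (4.32 ± 0.32, adjusted p = 6.52e-07 by edgeR), without overlap. *Igfbp7*, a binding protein of low IGF affinity found in vessels and stroma, rose from 50.7 ± 3.66 to 138 ± 10.0 CPM (1.49 ± 0.08, adjusted p = 3.88e-08), and *Igf1r*, the receptor of IGF-1, from 2.01 ± 0.43 to 4.41 ± 0.98 CPM (1.17 ± 0.21, adjusted p = 0.000441). As *Igf2* passed the filter only through the knockouts, its call could only come out as higher, and no contrast with *Igf1* is read from it. *Igf1r* had too few counts to be tested in HFCFD2W. The part of the cell type markers given below in these rises was not tested.

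**Figure D4:**
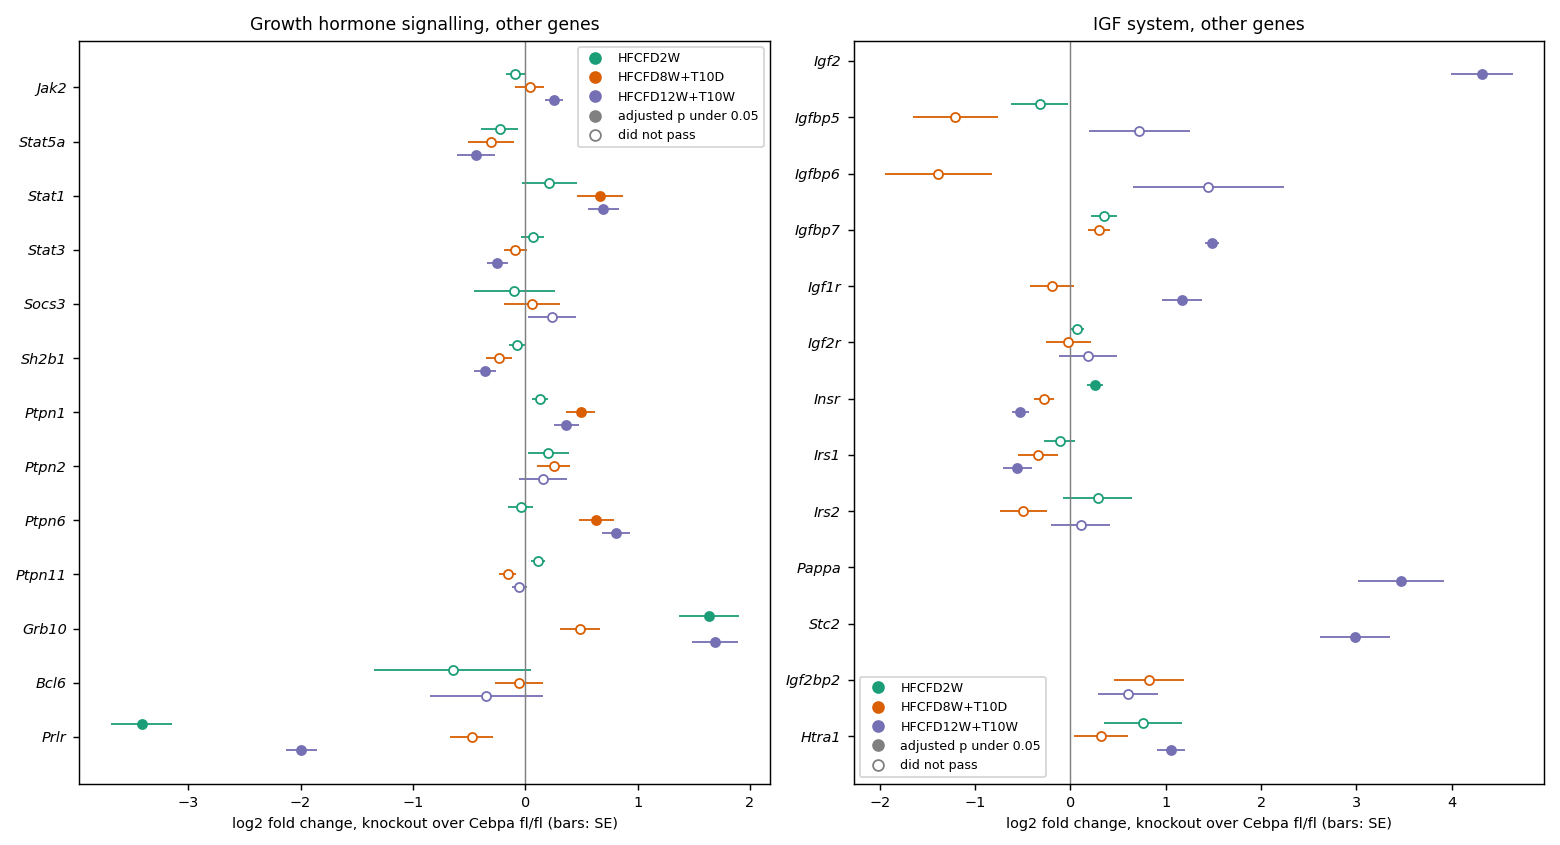
Log2 fold changes, knockout over *Cebpa* fl/fl, of the other genes of growth hormone signalling (left) and of the IGF system (right) in the 3 experiments, with bars of 1 SE, filled where the adjusted p is under 0.05 in edgeR with TMM scaling. *Prlr* lies furthest left in HFCFD2W and *Igf2* furthest right in HFCFD12W+T10W, and genes with too few counts have no point.

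Genes with sex-biased expression, which in mouse liver follow the growth hormone pattern, were also read. Of 22 genes known to be higher in male liver, 4 were higher and 3 lower of 19 tested in HFCFD2W by edgeR (4 and 2 by library totals). In HFCFD8W+T10D 0 were higher and 13 lower of 18 tested. In HFCFD12W+T10W 0 were higher and 12 lower of 17 tested (1 higher and 12 lower by library totals). The medians of their log2 fold changes were -0.06, -1.78 and -1.78. Of 20 genes known to be higher in female liver, 0 were higher and 2 lower of 6 tested in HFCFD2W, 3 higher and 5 lower of 12 in HFCFD8W+T10D, and 1 higher and 7 lower of 13 in HFCFD12W+T10W (1 and 5 by library totals), with medians of -0.97, -0.68 and -0.95. These medians run over different sets of genes. Over the 6 of them tested in all 3 experiments, 1 was higher and 2 lower in HFCFD8W+T10D. In HFCFD12W+T10W 1 of the 6 was higher and 3 lower (1 and 2 by library totals). The medians of the 6 were -0.97, -0.36 and -0.14, or -0.95, -0.15 and 0.23 by library totals. For the counts of 0 of male-biased genes, 0 were higher with DESeq2 in either tamoxifen experiment, and 0 and 1 at an unadjusted p under 0.05. For the 0 female-biased genes higher in HFCFD2W, both counts were 0 as well. Over all genes of HFCFD8W+T10D, 10.3% were higher and 6.85% lower (16.9% and 3.19% by library totals). For HFCFD12W+T10W these shares were 27.4% and 23.8% (56.6% and 7.72% by library totals). The lists were not tested against these shares.

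In HFCFD2W the male-biased *Mup20*, a major urinary protein gene, rose from 15571 ± 4211 to 32297 ± 2472 CPM (1.06 ± 0.15, adjusted p = 0.000579 by edgeR) and *Keg1* rose by 0.54 ± 0.12 (adjusted p = 0.0103), while the female-biased *Cyp2a4* fell from 124 ± 103 to 0.993 ± 0.968 CPM (adjusted p = 0.000292). In HFCFD8W+T10D the male-biased *Serpina1e* fell from 5326 ± 2994 to 16.4 ± 5.25 CPM (adjusted p = 7.43e-06), *Mup1* from 164 ± 88.8 to 1.63 ± 2.06 CPM (adjusted p = 0.000121) and *Mup7* from 441 ± 452 to 0.499 ± 0.501 CPM (adjusted p = 0.000284). The female-biased *Cyp2c69*, *Cyp2c40* and *Cyp2b9* fell there too, with log2 fold changes of -3.87, -2.82 and -3.93 (adjusted p from 0.000151 to 0.000431). These genes belong to families of near-identical copies, so the share of each copy is uncertain.

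In HFCFD12W+T10W the male-biased *Elovl3*, a fatty acid elongase, fell from 14.8 ± 9.48 to 0.229 ± 0.196 CPM (adjusted p = 1.84e-05 by edgeR), *Mup1* from 70.9 ± 44.0 to 1.34 ± 1.19 CPM (adjusted p = 7.85e-06) and *Mup7* from 88.0 ± 119 to 0.172 ± 0.235 CPM (adjusted p = 0.000716). The female-biased *Cyp2c40* and *Cyp2b9* fell by 4.47 and 3.03 on the log2 scale (adjusted p = 5.58e-06 and 3.10e-05). *Cyp2c69* averaged 13.6 CPM in fl/fl livers and held at most 3 counts in each knockout library, at least 52.1-fold lower when set against 3 counts per library (0.262 CPM). *Elovl3*, *Mup7* and *Cyp2c69* thus passed the filter on low counts chiefly through the fl/fl livers. So did *Cyp2a4* in HFCFD2W and *Mup7* in HFCFD8W+T10D. With the knockouts this low, such calls could only come out as lower, and the counts of the lists include them.

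The livers were hepatocyte-rich in every group, and markers of several other cell types moved with the genotype in the tamoxifen experiments. Over all genes tested in HFCFD12W+T10W, 27.4% were higher and 23.8% lower (56.6% and 7.72% by library totals). The lists were not tested against these shares, and the endothelial count below is near them. In HFCFD12W+T10W the summed CPM of 11 stellate cell and fibroblast markers was 319 to 397 in fl/fl and 1149 to 1404 in knockout livers (11 of 11 higher, *Dcn* having the highest mean CPM of the list over all 30 libraries), and that of 7 cholangiocyte markers 9.86 to 13.1 and 56.3 to 86.9 (7 of 7 higher). The sum of 10 hepatocyte markers was 110225 to 134051 and 70055 to 79535 CPM (5 of 10 lower, *Alb* having the highest mean CPM, and 3 higher and 4 lower by library totals). Among macrophage markers 6 of 10 were higher and 2 lower (7 and 2 by library totals), their sum being 266 to 824 and 618 to 846 CPM. The 2 lower were *Timd4* (-2.72, adjusted p = 0.000461 by edgeR) and *Marco* (-2.35, adjusted p = 0.00261). *Cd5l*, having the highest mean CPM of the list, did not pass (0.52, adjusted p = 0.104), nor did *Clec4f* (0.11, adjusted p = 0.716). In addition, 3 of 3 lymphocyte markers tested (*Ptprc* having the highest mean CPM) and 7 of 7 proliferation genes (*Pcna* having it) were higher. Of 8 sinusoidal endothelial markers 2 were lower (*Ptprb* having the highest mean CPM of the list), which by library totals became 2 higher and 0 lower. The cholangiocyte, lymphocyte and proliferation lists include genes under 1 CPM in fl/fl livers, such as *Cftr* (0.023), *Prom1* (0.73), *Cd3g* (0.40) and *Birc5* (0.71). Such genes passed the filter on low counts chiefly through the knockouts, so their calls could hardly come out as lower. Of the markers tested in all 3 experiments, 2 of 2 cholangiocyte, 1 of 1 lymphocyte and 3 of 3 proliferation genes were higher. The hepatocyte markers did not fall alike. *Cps1* (-1.39), *Serpina1a* (-1.16), *Alb* (-1.10), *Hnf4a* (-0.96) and *Asgr1* (-0.46) passed as lower on the log2 scale with TMM. *Ass1* (-0.38), *Apob* (-0.05), *Apoa1* (-0.03), *Ttr* (0.13) and *Trf* (0.24) did not pass. The part of these shifts in the differences of the 10 genes was not tested. In whole liver fewer hepatocytes, less RNA per hepatocyte and lower expression of single hepatocyte genes cannot be told apart.

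In HFCFD8W+T10D, 3 of 11 stellate cell markers, 6 of 10 macrophage markers, 3 of 6 cholangiocyte markers, 1 of 3 lymphocyte markers and 6 of 7 proliferation genes were higher, and 4 of 10 hepatocyte markers and 1 of 8 endothelial markers were lower. Over all genes tested there, 10.3% were higher and 6.85% lower (16.9% and 3.19% by library totals). By library totals 2 hepatocyte markers were higher and 3 lower, the endothelial call was lost, and 4 stellate cell markers, 8 macrophage markers, 2 lymphocyte markers and 7 proliferation genes were higher. Some markers, such as *Epcam* (0.49 CPM in fl/fl livers), passed the filter on low counts there chiefly through the knockouts. Of the markers tested in all 3 experiments, 4 of 8 macrophage, 1 of 2 cholangiocyte, 1 of 1 lymphocyte and 2 of 3 proliferation genes were higher. By library totals these became 6 macrophage and 3 proliferation genes, the other counts staying the same. In HFCFD2W these lists held few calls, with 1 of 10 hepatocyte markers lower, 2 of 8 macrophage markers and 1 of 3 proliferation genes higher, and 0 of 11 stellate, 0 of 8 endothelial, 0 of 2 cholangiocyte and 0 of 1 lymphocyte markers passing by edgeR (1, 2, 0 and 0 at an unadjusted p under 0.05, all higher). The shares over all genes tested in HFCFD2W were 8.6% higher and 8.09% lower. Of the 8 macrophage markers, 6 were higher at an unadjusted p under 0.05. The 8 had a median log2 fold change of 0.38, and the list summed to 212 to 292 CPM in fl/fl and 245 to 384 CPM in knockout livers. The summed stellate markers were 160 to 298 CPM in fl/fl and 154 to 328 CPM in knockout livers there, and the summed cholangiocyte markers 11.1 to 16 and 10.6 to 16.7 CPM. The part of these markers in the rise of *Igfbp1* and *Socs2* was not tested.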

How the data were processed

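The authors trimmed, aligned and counted the reads. The submitters' processing notes name Trimmomatic 0.36, STAR 2.5.1, Picard 1.84, RSEM 1.2.22 and DESeq2 with the mm10 genome, without roles. The deposited expected counts per gene (RSEM, not normalized, 3.25% of values not whole) were rounded. The authors' TPM were used only to compare genes within a group and for a check of correlations. Deposited tables of normalized CPM and of FPKM were not used. All 55450 gene identifiers and symbols are those of GENCODE M21.

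With R 4.3.3 and edgeR 4.0.16, genes were filtered by filterByExpr, scaled by TMM and compared by genotype within each experiment with the quasi-likelihood F test, Benjamini-Hochberg adjusted over the genes tested. A gene changed at an adjusted p under 0.05. Effects were compared between experiments as interactions in 1 fit of all libraries. CPM of single mice use 1 TMM scaling of the 30 libraries, so they can differ slightly from the fold changes. The steps were tested on simulated data. No pair of libraries agreed within sampling noise (smallest chi-square per degree of freedom 7.86). At totals of 7996123 to 10257347 counts, genes with at most 3 counts in each library of a group are at the floor, which covers counting error only.

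Alternatives were no filter, DESeq2 1.42.0, upper quartile scaling, a joint fit, a block by replicate number, leaving out each mouse, an adjusted p under 0.01 and a fold over 2. Scaling by library totals, and counting list genes only where all 3 experiments tested them, were chosen after seeing the data. The genes and the lists were chosen with earlier results of these data known. Beside the 10 genes, for each list and experiment the 3 genes with the largest fold change were named, if they changed without overlap between genotypes at a mean of at least 1 CPM. The 3 genes most like *Igf1* and *Socs2*, the most abundant gene of each marker list, and promoters of genes that changed alike in more than 1 experiment were added.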

Additional observations from a re-analysis of the deposited data

Results flagged for a closer look

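Of 60 sets of 5 mice (10 genes in 6 groups), 2 held a mouse far from the others by Dixon's ratio at its critical value of 0.71, and chance gives about 1 in 20. The ratio was taken on log2 CPM, not on the CPM printed here. *Igfbp1* in HFCFD2W knockout livers was 104 CPM in mouse 3 against 230 to 318 CPM in the others (ratio 0.711 on log2 CPM, barely past the critical value). *Igfbp3* in HFCFD12W+T10W fl/fl livers was 15.7 CPM in mouse 5 against 9.87 to 11.1 CPM (ratio 0.746).

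Genotype effects that differed between experiments, each by the interaction test of edgeR, numbered 13 of 30 tested. The 3 comparisons share their groups, so the 30 tests are not independent. Over all genes tested, 30.7% differed for HFCFD12W+T10W minus HFCFD2W, 11.2% for HFCFD8W+T10D minus HFCFD2W and 10.5% for HFCFD12W+T10W minus HFCFD8W+T10D. For HFCFD12W+T10W minus HFCFD2W they were *Igf1* (-0.70), *Igfals* (-0.98), *Ghr* (-0.76), *Socs2* (-2.28), *Igfbp1* (-2.95) and *Igfbp4* (-0.64). For HFCFD8W+T10D minus HFCFD2W they were *Socs2* (-2.68), *Igfbp1* (-3.54) and *Igfbp2* (-1.75). For HFCFD12W+T10W minus HFCFD8W+T10D they were *Igf1* (-0.46), *Igfals* (-1.10), *Igfbp2* (1.87) and *Igfbp4* (-0.54), all as differences of log2 fold changes.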

How the results depend on the processing

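Of the log2 fold changes and differences of the 10 genes recomputed under the alternatives, 1117 kept their direction and their side of the threshold, 37 lost a call, 18 gained one and 28 changed sign, and the cause was not tested. The members lower in HFCFD2W numbered 1, and 2 with DESeq2, 0 in the joint fit, with library totals, at an adjusted p under 0.01 and at a fold over 2, and 0 to 1 with 1 mouse left out. The members lower in HFCFD8W+T10D numbered 2, and 0 at an adjusted p under 0.01, 1 at a fold over 2 and 1 to 2 with 1 mouse left out. The members higher in HFCFD12W+T10W numbered 0, and 1 without the filter, 1 with upper quartile scaling, 2 with library totals and 0 to 1 with 1 mouse left out (1 without fl/fl mouse 4). The members lower in HFCFD12W+T10W numbered 5, and 3 with library totals and 1 at a fold over 2. The members whose genotype effect differs, HFCFD12W+T10W minus HFCFD8W+T10D, numbered 4, and 2 without the filter, with library totals and at an adjusted p under 0.01, and 2 to 4 with 1 mouse left out. Library totals turned the sign in HFCFD8W+T10D of *Cish* (0.080), *Stat5b* (0.0034) and *Igfbp1* (0.012), and for differences between experiments of *Stat5b* (0.13) and *Igfbp4* (0.055) in HFCFD8W+T10D minus HFCFD2W and of *Stat5b* (0.012) in HFCFD12W+T10W minus HFCFD2W. Upper quartile scaling turned *Stat5b* in HFCFD8W+T10D minus HFCFD2W (0.015). With 1 mouse left out, log2 fold changes that crossed 0 ran from -0.69 to 0.64 (*Cish*, HFCFD2W), from -0.29 to 0.055 (*Cish*, HFCFD8W+T10D), from -0.40 to 0.080 (*Igfbp1*, HFCFD8W+T10D), from -0.051 to 0.12 (*Igfbp4*, HFCFD8W+T10D) and from -0.42 to 0.89 (*Cish*, HFCFD12W+T10W). Differences of log2 fold changes that did so ran from -0.74 to 0.59 (*Cish*) and from -0.097 to 0.029 (*Stat5b*) for HFCFD8W+T10D minus HFCFD2W, from -0.35 to 0.96 (*Cish*) and from -0.087 to 0.22 (*Igfbp3*) for HFCFD12W+T10W minus HFCFD8W+T10D, and from -0.21 to 1.17 (*Cish*) and from -0.044 to 0.42 (*Igfbp2*) for HFCFD12W+T10W minus HFCFD2W. None of these had passed the test. The correlation of *Igf1* and *Ghr*, 0.49, was -0.018 on log2(TPM + 1).

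Mice with the same replicate number in both genotypes did not deviate together (r from -0.25 to 0.11 in HFCFD2W, from -0.11 to 0.15 in HFCFD8W+T10D and from -0.09 to 0.17 in HFCFD12W+T10W), so the numbers do not pair them. With the replicate number as a block, the members lower in HFCFD2W numbered 0 instead of 1 and the members higher in HFCFD12W+T10W 1 instead of 0, and it changed no other call of the 10 genes. Counts of the lists of pathway and sex-biased genes that moved by more than 1.5 times ran, over the alternatives other than leaving out mice, from 1 to 2 (growth hormone signalling, lower, reported 1) in HFCFD2W and HFCFD8W+T10D and from 2 to 6 (reported 6) in HFCFD12W+T10W. For the IGF system they ran from 1 to 2 higher (reported 2) and 0 to 1 lower (reported 1) in HFCFD2W, 0 to 1 higher (reported 0) and 1 to 3 lower (reported 1) in HFCFD8W+T10D, and 2 to 5 lower (reported 5) in HFCFD12W+T10W. Male-biased genes ran from 1 to 5 higher (reported 4) and 0 to 4 lower (reported 3) in HFCFD2W, and 0 to 1 higher (reported 0) in HFCFD12W+T10W. Female-biased genes ran from 2 to 5 lower (reported 2) in HFCFD2W and, in HFCFD8W+T10D, from 1 to 3 higher (reported 3) and 4 to 8 lower (reported 5). Depth limits *Cish* and *Socs2* most, at 8 and 14 counts in their lowest libraries.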

Other observations

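Deviations from the group means were compared between the 10 genes over the 30 mice, in 45 pairs, with permutation p adjusted by Benjamini-Hochberg. By Pearson's r 3 pairs passed, and 0 did by Spearman's rho. *Igfals* and *Igfbp4* moved together (r = 0.624, adjusted p = 0.032, rho = 0.620, adjusted p = 0.074), with r of 0.658, 0.647 and 0.541 within HFCFD2W, HFCFD8W+T10D and HFCFD12W+T10W and 0.568 without the 2 mice farthest from the median of *Igfals*. On log2(TPM + 1), which has no TMM scaling, it was 0.419. *Igfals* and *Ghr* gave r = 0.673 (adjusted p = 0.032, rho = 0.589, adjusted p = 0.074, within experiments 0.541, 0.763 and 0.641, without 2 mice 0.524) and 0.327 on log2(TPM + 1). *Ghr* and *Igfbp4* gave r = 0.702 (adjusted p = 0.032, rho = 0.572, adjusted p = 0.076, within experiments 0.282, 0.873 and 0.321, without 2 mice 0.612), but -0.125 on log2(TPM + 1), so this relation did not hold under that scale. The STAT5 targets *Socs2* and *Cish* gave r = 0.460 (adjusted p = 0.069, rho = 0.473, adjusted p = 0.079), which did not pass, with 0.186, 0.674 and 0.860 within the experiments, 0.568 without 2 mice and 0.444 on log2(TPM + 1).

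The mean transcript length that RSEM assigned to *Igf1*, which depends on the mix of its transcripts, was 1381 to 1431 bases in fl/fl livers of HFCFD8W+T10D, against 1496 to 1774 bases in HFCFD2W fl/fl and 1642 to 1799 bases in HFCFD12W+T10W fl/fl livers. The genotypes overlapped within each experiment, the HFCFD8W+T10D knockouts ranging from 1204 to 1595 bases. Diet time and tamoxifen cannot be told apart here.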
